A study of Rattus norvegicus with 6 samples.

Results

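The collagen chains other than type I were taken as every non-control probe whose gene name on the array of Ta replicate 1 reads Col, a type number, a and a chain number, leaving out Col1a1 and Col1a2. This gave 78 of 45598 probes, which cover 42 of 34867 genes. Of these 42 genes, 29 were tested, since the scanner software marked a probe of theirs as well above background on 3 or more of 6 arrays, and 13 were not. The cells were rat bone marrow stromal cells (rBMSCs), adherent cells isolated from the marrow of rat tibias, which can form bone, cartilage and fat cells. They were cultured for 7 days either on titanium whose surface was modified with tantalum (the Ta group, 3 arrays) or on titanium with a simple surface (the Ti group, 3 arrays). The question is how the surface relates to the cells' transcripts. The series' design text calls the cultures independent experiments. Strain, age and sex of the rats, and whether marrow was pooled, are not given in the sources used here. The labels name only rBMSCs, a primary culture that can still hold other marrow cells.

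Collagens are trimers of alpha chains wound into a triple helix, which needs a glycine at a fixed spacing. Fibrillar collagens (types I, II, III, V, XI, XXIV and XXVII) build the fibrils of bone, cartilage and soft tissue, with type V inside type I fibrils, where it controls how they start and how thick they grow. Type VI forms beaded microfibrils around cells, type IV the network of basement membranes, and the FACIT chains decorate the surface of fibrils. In bone marrow and bone, type I is the bulk of the matrix, and the other types set its fibril structure and its contact with cells.

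A few probe sequences are shown to let the regions measured be seen: further probes of the called genes Col6a3 and Col5a1, whose gene-level values come from brighter probes not printed, and the probe that gives the Col7a1 result. Coordinates are those of the array design, rat build rn4. Exons and untranslated regions were not analysed here. The 4 probes of Col6a3 span 44.1 kb of chromosome 9 (minus strand). In 5′ to 3′ order, 3 of them are printed, at chr9:90009145-90009204, chr9:89977679-89977738 and chr9:89966522-89966581. The probe not printed lies farther 3′, at chr9:89965077-89965136. The only probe of Col7a1 lies at chr8:114002585-114002644. Both chains are known to end in a Kunitz-type domain. The capitals mark the letters TANGGNGGCTGC, chosen after the sequences were seen, which the last printed Col6a3 probe shares with the Col7a1 probe. On the printed strand these letters occur in 5 of 45598 probes (0.0110%), and in 2 of the 78 collagen probes. The match is a description of the letters.
Col6a3 probe A_43_P20052: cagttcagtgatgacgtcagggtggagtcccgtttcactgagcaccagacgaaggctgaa
Col6a3 probe A_44_P1155252: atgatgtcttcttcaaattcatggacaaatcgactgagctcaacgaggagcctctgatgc
Col6a3 probe A_44_P1363281: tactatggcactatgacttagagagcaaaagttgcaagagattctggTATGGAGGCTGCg
Col7a1 probe A_64_P137075: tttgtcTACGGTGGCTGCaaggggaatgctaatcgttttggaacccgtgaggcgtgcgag

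The second probe of Col5a1, at chr3:6970963-6971022, is shown as a part of a fibrillar chain outside the repeat. The Col4a6 probe at chrX:37482127-37482186 shows the repeat itself, with capitals on the GG of the letters GGNNNNNNN, which recur 6 times in a row there. On the printed strand such a run of at least 6 was found in 10 of 45598 probes (0.0219%), of which 7 were collagen probes.
Col5a1 probe A_64_P009097: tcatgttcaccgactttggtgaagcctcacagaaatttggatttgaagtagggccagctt
Col4a6 probe A_64_P390391: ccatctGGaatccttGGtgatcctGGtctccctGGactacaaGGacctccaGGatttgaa

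Each array had 62.7% to 65.9% of its spots well above background. Values below are log2 signals, each array scaled by its 75th percentile (1848 to 2388 before scaling). Levels of different genes are not compared, since probes differ in brightness. The exception is the summed signal of marker lists, in which bright probes weigh most. Differences are Ta minus Ti, with the SE of limma's moderated test and a Benjamini-Hochberg adjusted p over all 19595 genes tested. Ta replicate 1 and Ti replicate 2 lay nearer to the other group than their own replicates did along the first principal component, which held 67.6% of the variance (scores 6.8 and -23.0, against 43.7 and 57.8 for the other Ta arrays and -40.7 and -44.5 for the other Ti arrays).

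Of the 29 tested collagen genes, 3 fell on Ta, 1 rose and 25 did not pass the test. Among all genes tested, 4.16% were called, 1.49% lower and 2.68% higher (291 lower and 525 higher, or 364 and 418 with median scaling). Col6a3, a chain of type VI, fell 4.98-fold, and Col5a1 and Col5a2, the chains of the fibril regulator type V, fell 1.45-fold and 1.39-fold. Col7a1, the chain of anchoring fibrils, rose 3.60-fold. The tested collagens had a median difference of -0.48, against 0.03 over all genes (-0.16 against 0.06 with normexp background correction), and 23 of 29 lay below 0, against 46.2% of all genes. At an unadjusted p under 0.05 there were 18 (30% of all genes), 16 lower (13.2% of all genes) and 2 higher (16.8%). Col6a3, Col6a1, Col6a2 and Col12a1 were lower by at least 1 on the log2 scale, as were 2.88% of all genes. In 15 of 29 every Ta array lay below every Ti array, against 16.4% of all genes, and in 3 every Ta array lay above, against 19.5%. Because only genes well above background were tested, the median and counts describe those genes and not all 42. The RNA was measured in bulk, so fewer cells of a type and less RNA per cell cannot be told apart.

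**Figure D1:**
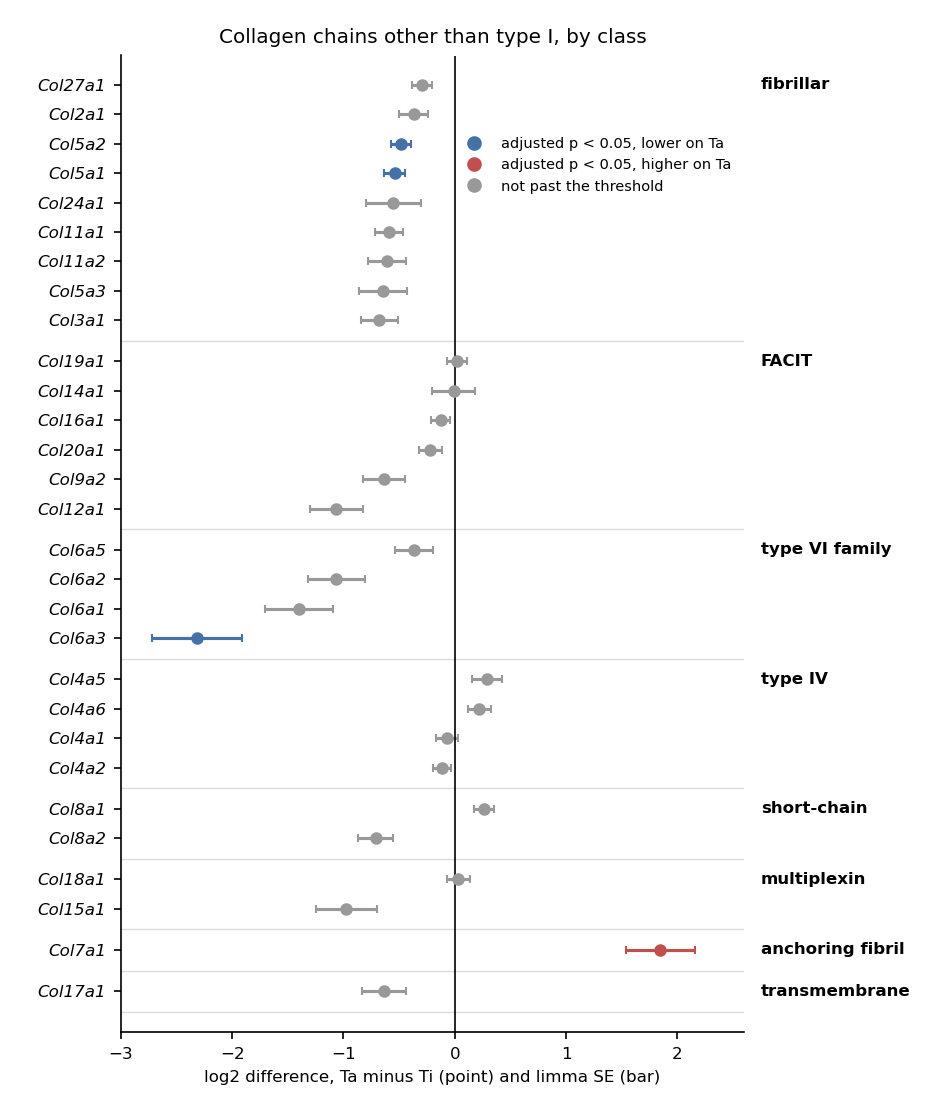
Each point is 1 of the 29 tested collagen genes, placed by its log2 difference (Ta minus Ti, n = 3 arrays per group) with the limma SE as a bar and grouped by collagen class. All 9 fibrillar genes lie left of 0, Col6a3 lies farthest left at -2.32, and Col7a1 lies farthest right at 1.85.

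Whether the 4 genes were called depended on which array was left out. When Ta replicate 2 or 3 was left out, limma called 0 collagens (14 and 15 at an unadjusted p under 0.05), and likewise 0 when Ti replicate 1 or 3 was (15 and 15). It then called 0 of all genes too, while 15 were called without Ta replicate 1 and 6 without Ti replicate 2, settings that called 16.4% and 7.99% of all genes. The Ta arrays and Ti replicate 1 shared a slide row, and within it the differences from Ti replicate 1 were -2.61 for Col6a3, -0.68 for Col5a1, -0.51 for Col5a2 and 1.99 for Col7a1, with adjusted p of 0.193, 0.190, 0.205 and 0.195 when slide row is a block in limma, which assumes that Ti replicate 1 varies like the other arrays.

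Type VI collagen is assembled from the chains of Col6a1, Col6a2 and Col6a3, and other chains such as that of Col6a5 can take the place of Col6a3. For Col6a3 the Ta arrays read 12.85, 11.76 and 11.41 and the Ti arrays 14.61, 13.85 and 14.50 (replicates 1 to 3). Every Ta array lay below every Ti array, and Ta replicate 1 was the highest of the Ta arrays. Col6a3 fell by 2.32 (SE 0.40, adjusted p = 0.0450), and the adjusted p ranged from 8.4e-04 to 0.193 over 19 alternative settings, 12 of which called it. The 4 probes of Col6a3, including the 3 printed above, gave differences from -2.06 to -2.49. The most 5′ of these 4 probes (A_43_P20052) cleared background on 2 of 3 Ta arrays and on all 3 Ti arrays.

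For Col6a1 the Ta arrays read 11.64, 10.83 and 10.62 and the Ti arrays 12.65, 12.04 and 12.60. The groups did not overlap, and the difference of -1.40 ± 0.30 did not pass (adjusted p = 0.0568). For Col6a2 the Ta arrays read 13.54, 12.88 and 12.75 and the Ti arrays 14.34, 13.75 and 14.27. Again the groups did not overlap, with a difference of -1.06 ± 0.26 (adjusted p = 0.0662). In both genes Ta replicate 1 was the highest Ta array and Ti replicate 2 the lowest Ti array. A second probe gave -1.01 for Col6a1, where the groups overlapped, and -1.28 for Col6a2, where they did not. Col6a5 differed by -0.37 ± 0.17 with overlapping groups (adjusted p = 0.201). Col6a4 and Col6a6 were not tested: the probe of Col6a4 cleared background on no array, and of the 5 probes of Col6a6 1 did, on 1 Ta array.

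**Figure D2:**
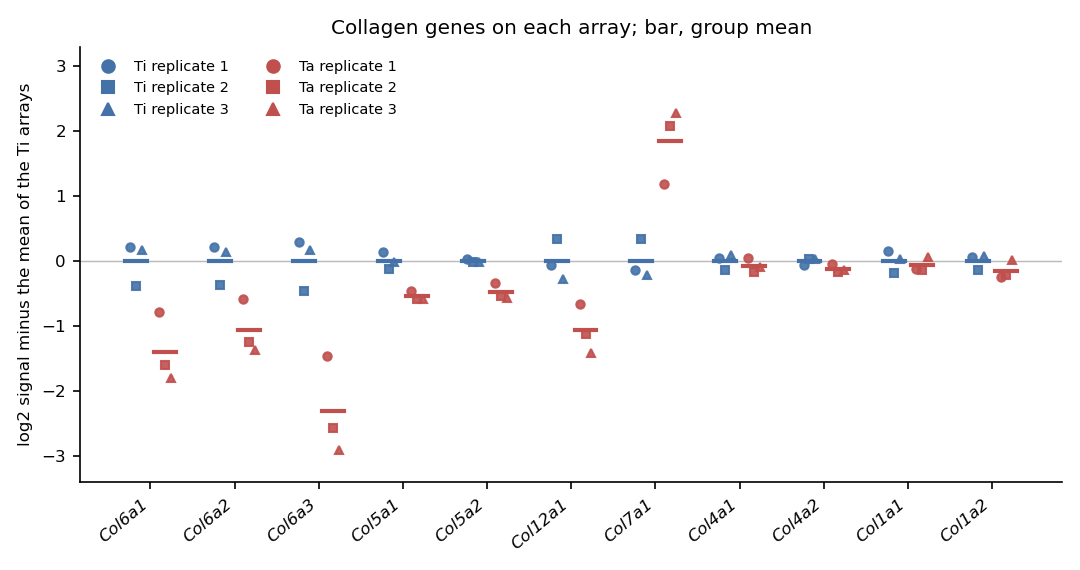
Log2 signal of 11 genes on each array, minus the mean of the 3 Ti arrays, with circles, squares and triangles for replicates 1, 2 and 3 and bars for group means. In the type VI genes Ta replicate 1 lies between the Ti arrays and the other Ta arrays, Col7a1 runs the opposite way, and Col4a1, Col4a2, Col1a1 and Col1a2 overlap between the groups.

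The fibrillar class had all 9 of its 9 genes tested. All 9 lay below 0 (46.2% of all genes did), with a median of -0.55 and a range from -0.68 to -0.29. Of them 2 fell, against 1.49% of all genes, and 7 did not pass. With normexp the dim genes Col24a1, Col2a1 and Col11a2 moved toward 0, to -0.021, -0.047 and -0.16, as did Col9a2 (-0.40), Col17a1 (-0.32) and Col6a5 (-0.14) of other classes. In 7 of the 9 every Ta array lay below every Ti array, against 16.4% of all genes. For Col5a1 the Ta arrays read 13.49, 13.37 and 13.37 and the Ti arrays 14.09, 13.84 and 13.93. The groups did not overlap, and the gene fell by 0.54 (SE 0.10, adjusted p = 0.0450, from 0.00105 to 0.190 over 19 alternatives). The second Col5a1 probe gave -0.51, and with the mean of both probes the adjusted p was 0.0526.

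For Col5a2 the Ta arrays read 13.90, 13.70 and 13.68 and the Ti arrays 14.27, 14.23 and 14.23. The Ti arrays lay within 0.05 of each other and all above the Ta arrays. Col5a2 fell by 0.48 (SE 0.09, adjusted p = 0.0473, from 0.00105 to 0.205 over 19 alternatives), with -0.49 for the second probe, whose position overlaps that of the first. With quantile scaling its adjusted p was 0.0572, and without Ti replicate 2 it was 0.0530. Col5a3, the third type V chain, differed by -0.65 ± 0.21 with overlapping groups (adjusted p = 0.110).

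Col3a1 encodes the chain of type III, which forms fibrils with type I in soft tissue. It differed by -0.68 ± 0.16 without overlap of the groups and did not pass (adjusted p = 0.0662). Col11a1 and Col11a2, the chains of the cartilage fibril regulator type XI, differed by -0.59 ± 0.12 and -0.61 ± 0.17 (adjusted p = 0.0538 and 0.0828). Col2a1, the main collagen of cartilage, differed by -0.37 ± 0.13 and Col27a1 by -0.29 ± 0.09 (adjusted p = 0.120 and 0.0952). A second probe of Col27a1 gave -0.09, with overlapping groups. Col24a1, at -0.55 ± 0.25 (adjusted p = 0.193), cleared background on 1 of 3 Ta arrays. The type I chains, which are no members, differed by -0.07 ± 0.12 for Col1a1 (0.13 for its second probe) and -0.15 ± 0.11 for Col1a2.

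Col7a1 encodes type VII collagen, the anchoring fibrils that tie an epithelial basement membrane to the tissue beneath. The Ta arrays read 7.00, 7.89 and 8.10 and the Ti arrays 5.67, 6.16 and 5.61. Every Ta array lay above every Ti array, and Ta replicate 1 was the lowest of the Ta arrays. Col7a1 rose by 1.85 ± 0.31 (adjusted p = 0.0436, from 8.4e-04 to 0.195 over 19 alternatives, 12 of which called it). With normexp background correction, the difference was 1.21. It has 1 probe and 1 spot on the array, so no second probe bears on it. The Col17a1 gene, a transmembrane collagen of epithelial attachment, differed the other way by -0.64 ± 0.20 and did not pass (adjusted p = 0.0960).

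Type IV chains form the basement membrane network, and 4 of the 6 genes were tested. None of the 4 was called in the limma test, and 0 of the 4 had an unadjusted p under 0.05. Col4a1 and Col4a2, the chains of the common network, differed by -0.07 ± 0.10 and -0.11 ± 0.08. Their arrays overlapped between the groups. Col4a5 and Col4a6 differed by 0.29 ± 0.14 and 0.22 ± 0.10 (adjusted p = 0.214 and 0.207). The Ta arrays of Col4a6 all lay above the Ti arrays, and a second tested probe gave -0.04. Col4a3 cleared background on no array, and Col4a4 on 1.

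The type IV genes lie in divergent pairs, with start sites in RefSeq (build GRCr8) 76 bases apart for Col4a1 and Col4a2, 412 for Col4a3 and Col4a4, and 1414 for Col4a5 and Col4a6, counting the bases between. The stretch between Col4a1 and Col4a2, chr16:84885521-84885596 on the plus strand, is shown because both genes start from it (differences of -0.07 and -0.11), and capitals mark a GC box, the letters GGGCGG on either strand.
Col4a1 and Col4a2 between starts: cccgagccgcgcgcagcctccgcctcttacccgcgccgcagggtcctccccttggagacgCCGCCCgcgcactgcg

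A promoter window of 250 bases before the start was matched for 34 of the 42 genes in the same RefSeq table. Not matched were Col2a1, Col3a1, Col6a2, Col9a3, Col12a1, Col14a1, Col22a1 and Col25a1. On both strands, GGGCGG was in 19 of the 34 windows (32.4% of 27457 windows of all genes), CCAAT in 10 (34.3%), TATAAA in 3 (13.1%) and the AP-1 letters TGANTCA in 1 (6.36%), which was Col6a1. The windows of Col6a1 (chr20:11905440-11905689, plus strand) and Col6a3 (chr9:98886959-98887208, minus strand) are printed because these type VI genes had the lowest differences, with the TGANTCA match of Col6a1 in capitals. These letters were searched as a description of the window.
Col6a1 promoter: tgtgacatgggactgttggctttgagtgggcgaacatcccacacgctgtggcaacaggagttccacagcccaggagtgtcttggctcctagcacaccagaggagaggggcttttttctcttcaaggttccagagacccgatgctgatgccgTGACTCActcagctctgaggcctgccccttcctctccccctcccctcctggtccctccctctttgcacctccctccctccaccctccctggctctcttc
Col6a3 promoter: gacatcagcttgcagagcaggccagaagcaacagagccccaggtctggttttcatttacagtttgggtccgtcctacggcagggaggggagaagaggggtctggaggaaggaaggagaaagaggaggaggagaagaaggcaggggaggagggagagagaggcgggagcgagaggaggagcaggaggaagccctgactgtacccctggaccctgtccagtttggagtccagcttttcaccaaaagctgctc

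Of the 9 FACIT genes 6 were tested and 0 were called in the limma test, against 2 lower at an unadjusted p under 0.05. Col12a1, a chain that bridges fibrils to the matrix around them, had Ta arrays at 12.81, 12.35 and 12.06 and Ti arrays at 13.41, 13.82 and 13.19. The groups did not overlap, and Ti replicate 2 was the highest. Col12a1 differed by -1.06 ± 0.24 (adjusted p = 0.0602), with its 4 probes from -0.84 to -1.06. Col9a2, which is found on cartilage fibrils, differed by -0.63 ± 0.19 (adjusted p = 0.0922). Col14a1 differed by -0.01, Col16a1 by -0.13, Col19a1 by 0.02 and Col20a1 by -0.22, all with overlapping groups, and the signs of Col14a1 and Col19a1 depend on the setting, Col14a1 with normexp and Col19a1 with median scaling.

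Col8a1 and Col8a2, short chains of the matrix of endothelium and other tissues, differed by 0.26 ± 0.09 and -0.71 ± 0.16 (adjusted p = 0.113 and 0.0583). In neither did the groups overlap, and a second probe of Col8a2 gave -0.09. Col15a1 and Col18a1, multiplexins of basement membrane zones, differed by -0.97 ± 0.28 (adjusted p = 0.0839) and 0.03 ± 0.11. Of these 4 genes, the sign of Col18a1 turned with median scaling.

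**Figure D3:**
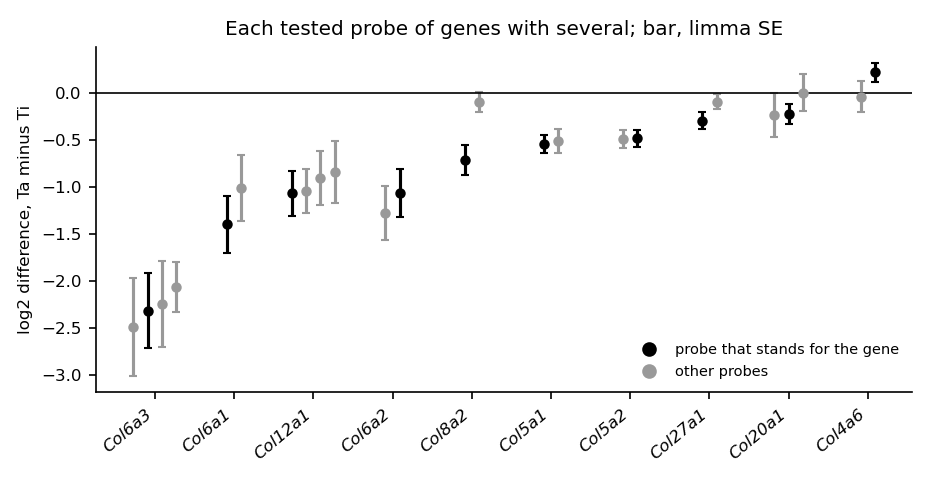
Log2 difference (Ta minus Ti) of each tested probe, with the limma SE of the fit on single probes, in collagen genes with more than 1 tested probe. Black points stand for the gene in the test. The probes of Col6a3 lie between -2.06 and -2.49 and those of Col12a1 between -0.84 and -1.06, while the second probes of Col8a2 and Col27a1 lie nearer 0.

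The 13 genes not tested were Col4a3, Col4a4, Col6a4, Col6a6, Col9a1, Col9a3, Col10a1, Col13a1, Col22a1, Col23a1, Col25a1, Col26a1 and Col28a1. Col9a1 and Col10a1, markers of cartilage and of its hypertrophic zone, cleared background on no array. For Col26a1 a probe was well above background on 1 Ti array and no Ta array. At least 1 probe was above background on some array in Col4a4, Col6a6, Col9a3, Col13a1, Col22a1, Col23a1, Col25a1 and Col26a1.

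Whether chains of a type, and in 2 pairs chains of different fibrillar types, changed unequally was tested on the difference between 2 chains on the same array, where scaling cancels, in 9 pairs with an exact permutation test over 20 assignments (two-sided), whose smallest p is 0.1. Col6a3 minus Col6a1 read 1.21, 0.93 and 0.78 on Ta and 1.97, 1.81 and 1.90 on Ti. Every Ta array lay below every Ti array, a shift of -0.92 (exact p = 0.1, 0.18 after Benjamini-Hochberg adjustment over the 9 pairs). Col6a3 minus Col6a2 shifted by -1.25 and Col6a1 minus Col6a2 by -0.33, with the same exact p and no overlap. With the mean of each gene's probes the last shift was -0.03, so it depends on the probes chosen.

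Col8a1 minus Col8a2 shifted by 0.97 (0.67 with the mean of each gene's probes) and Col3a1 minus Col1a1 by -0.61, each without overlap and with an exact p of 0.1. Col4a1 minus Col4a2 shifted by 0.04 (exact p = 0.9), Col5a1 minus Col5a2 by -0.06 (0.4), Col5a1 minus Col5a3 by 0.11 (0.7) and Col3a1 minus Col5a2 by -0.20 (0.3). In these 4 pairs the groups overlapped. None of the 9 pairs can pass an adjusted p of 0.05 with 3 arrays per group.

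**Figure D4:**
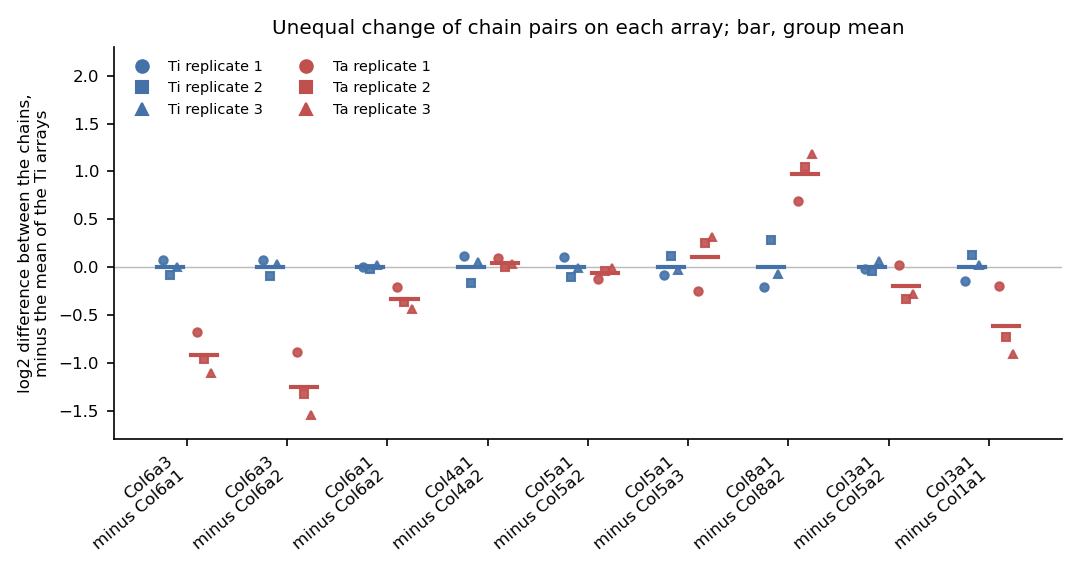
For 9 pairs of collagen chains, the log2 difference between the chains on each array minus the mean of the 3 Ti arrays, with replicates 1, 2 and 3 as circles, squares and triangles and bars for group means. The pairs of Col6a3 with Col6a1 and Col6a2 lie lower on all Ta arrays, and Col8a1 minus Col8a2 lies higher.

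Other genes that make, process, bind or break down collagen were listed under 104 names, of which Ctgf is an older name of Ccn2. Of these, 93 were tested, 4 fell (1.49% of all genes tested did), 2 rose (2.68%) and 87 did not pass (median -0.09). All 6 calls were lost in limma without Ta replicate 2 or 3 or Ti replicate 1 or 3 (21, 29, 26 and 23 at an unadjusted p under 0.05), while 24 genes were called without Ta replicate 1 and 13 without Ti replicate 2. Among receptors, 11 of 13 were tested, 1 fell and 2 rose. Cspg4, the NG2 proteoglycan, which binds type VI collagen, read 10.22, 9.55 and 9.26 on Ta and 11.84, 11.14 and 11.67 on Ti. Every Ta array lay below the Ti arrays, and it fell by 1.87 (SE 0.29, adjusted p = 0.0419). Ddr1, a collagen-activated receptor tyrosine kinase, rose by 0.99 ± 0.12 (adjusted p = 0.0392), or by 0.39 with normexp. Antxr2, a receptor that binds type IV and type VI collagens, rose by 0.79 ± 0.14 (adjusted p = 0.0450), with 1.41 for a second probe. Ddr2 differed by 0.45 ± 0.15 and Itgb1, the shared beta subunit of collagen-binding integrins, by -0.25 ± 0.08 (adjusted p = 0.107 and 0.105).

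Of 13 tested fibril-associated genes 2 fell. Fmod, a proteoglycan on fibrils, read 10.49, 9.99 and 9.71 on Ta and 11.57, 11.53 and 11.40 on Ti, and fell by 1.44 (SE 0.20, adjusted p = 0.0392). Aspn, a related proteoglycan, fell by 1.498 (SE 0.28, adjusted p = 0.0480). In both no Ta array reached a Ti array.

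Among 20 tested genes of hydroxylation, glycosylation and chaperones, Colgalt1, which adds galactose to collagen, fell by 0.44 (SE 0.08, adjusted p = 0.0459) and 19 did not pass. P4ha1, a prolyl hydroxylase, differed by 0.01, Plod2, a lysyl hydroxylase, by -0.21 and the collagen chaperone Serpinh1 by -0.36 ± 0.10 (adjusted p = 0.0804). The procollagen protease Bmp1 differed by -0.11 and the crosslinking enzyme Lox by 0.20. No gene passed among 6 tested genes of processing, 6 of crosslinking, 11 basement membrane partners, 10 of breakdown and 14 regulators in limma (1, 3, 2, 6 and 6 at an unadjusted p under 0.05).

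**Figure D5:**
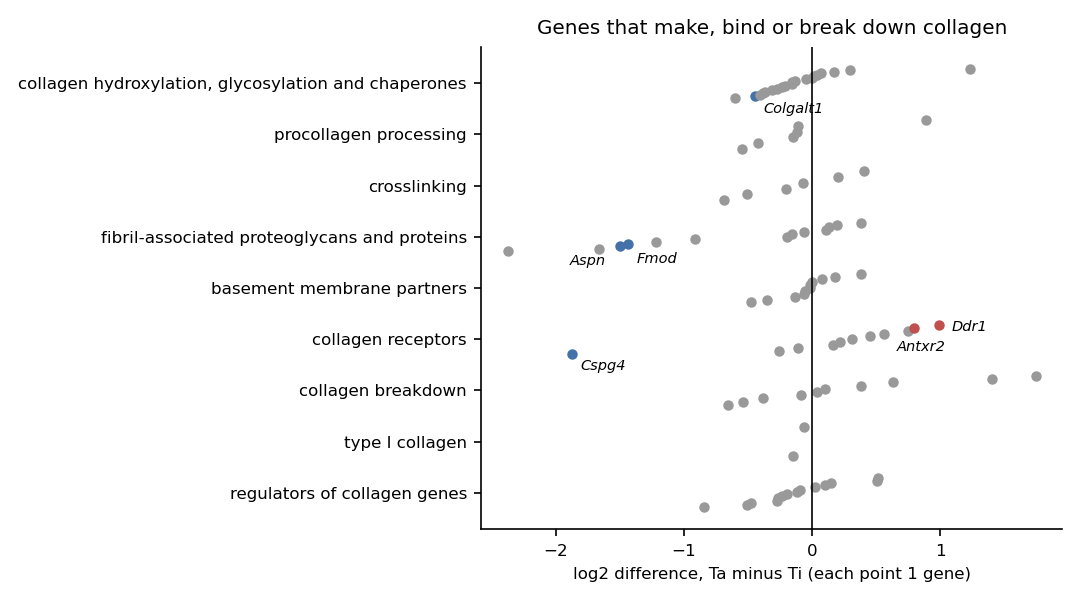
Log2 differences (Ta minus Ti) of the 93 tested genes of the collagen pathway, among them the 2 type I chains, 1 point per gene, by list. Coloured and named are the 6 past an adjusted p of 0.05, with Cspg4 at -1.87 and Ddr1 at 0.99.

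Some marker lists of marrow cells differed in summed signal between the groups and others overlapped. Their part in the collagen differences was not tested. The summed signal of 14 macrophage markers was 148511 to 199742 on the Ti arrays and 49867 to 132084 on the Ta arrays, with 12 of 14 genes below 0 and none called (8 lower and 2 higher at an unadjusted p under 0.05). Lyz2 made up 13.7% to 49.8% of this sum on Ta and 57.1% to 62.9% on Ti, and without it, a sum taken after the data were seen, the groups overlapped at 43043 to 66268 on Ta and 63651 to 74006 on Ti. For 6 adipocyte markers the summed signal was 23423 to 52699 on Ti and 6602 to 14535 on Ta. Of these, 4 were tested and Lpl was called. Its probe was the brightest of the 4, so it weighs most in the sum. Plin1 was above background nowhere. Of 6 tested mast cell markers 4 fell (4 lower and 1 higher at an unadjusted p under 0.05 in limma). Among those 4, Cma1 cleared background on 0 Ta arrays and Cpa3 on 1, both on 3 Ti arrays. Cma1 thus entered the test only through the group where it was high. Hdc lay the other way at 0.73, and a second probe of Mcpt8 gave -0.41. Of 3 tested neutrophil markers 2 rose. Of 9 tested stromal markers 2 rose (Thy1 and Cxcl12), with 1 lower and 4 higher at an unadjusted p under 0.05. Among all genes tested, 1.49% fell and 2.68% rose (13.2% and 16.8% at an unadjusted p under 0.05). S100a9, Ngp and Elane of the 6 listed neutrophil markers, and Lepr of the stromal list, were above background nowhere. For 7 endothelial markers, of which Emcn was above background nowhere, the sums overlapped at 1727 to 2046 on Ta and 1726 to 2023 on Ti. Of the 6 tested, 5 lay below 0 and 0 were called in limma (1 lower at an unadjusted p under 0.05). For 6 tendon and fibroblast markers the sums overlapped at 104109 to 132754 on Ta and 103027 to 115131 on Ti. Here 5 were tested, 4 lay below 0 and 0 were called in limma (3 lower at an unadjusted p under 0.05). Of pericyte and smooth muscle, osteoblast and chondrocyte markers, 5 each were tested and 1 each fell (Cspg4, named above as a receptor, Dlx5 and Sox5). In these lists 2, 2 and 1 genes lay above 0, among them Alpl at 0.49 and Sp7 at 0.54. Sox9 was at 0.30, with -0.65 and -0.56 for other probes. The osteoblast sums overlapped, at 26289 to 34520 on Ta and 25269 to 48807 on Ti. The pericyte and chondrocyte sums were lower on every Ta array than on any Ti array.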

How the data were processed

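The 6 arrays are one-colour Agilent arrays (Cy3) on 1 slide. Per the file headers and the submitters' processing notes, Agilent Feature Extraction 12.0 subtracted the background, and the deposited values are processed intensities on a linear scale, not scaled between arrays. The processing notes also name limma. From each array's log2 intensity its 75th percentile was subtracted (58717 spots, controls left out) and the mean percentile added back. Outlier spots were set missing and spots of a probe averaged. The filter on background (3 of 6 arrays) kept 25787 probes, and the brightest probe of each gene was used (19595 genes). Groups were compared with limma 3.58.1 (lmFit, eBayes, two-sided) in R 4.3.3, threshold 0.05. Data were also simulated for 19595 genes, of which 200 were shifted. There the fit found 66% of shifts of 1 and 89% of shifts of 2 on the log2 scale. It made 8 false calls among 163. In the real data 30% of genes had an unadjusted p under 0.05 in limma, so these rates may not carry over. Whether the rates hold when whole arrays deviate, as Ta replicate 1 and Ti replicate 2 did, was not tested. The number of arrays limits the precision.

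The members and lists were chosen with earlier results of these data known. Per-array values are given for members past the threshold, those that differ by at least 1 on the log2 scale, and Col6a3, Col5a1 and Col5a2. Other genes named are those past the threshold and 9 genes fixed whatever their result, and others appear as values only. Alternatives were other scalings, normexp with an offset of 50, filters, blocks, eBayes settings, array weights, probe rules and leaving out each array. Promoter windows are from RefSeq GRCr8.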

Additional observations from a re-analysis of the deposited data

How the results depend on the processing

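The count of 4 collagens called in limma (6 for pathway genes) became 12 (22) with normexp background correction, 8 (11) with the filter of all 6 arrays, 10 (17) with trend and robust eBayes and 22 (56) with array weights, settings that called 13.2%, 6.57%, 10.7% and 51.8% of all genes, against 4.16%. It became 0 (0) with no filter on dim probes (19 and 37 at an unadjusted p under 0.05), 0 (0) with slide row as a block (16 and 30) and 0 (0) with the replicate block (17 and 34). Of all genes, 0 were called with no filter, 0 with slide row as a block and 9 with the replicate block. Same-numbered arrays did not deviate together in every pair (correlations 0.06, 0.13 and -0.18). The labels do not say whether a number marks a shared batch, and these correlations, from group means of 3 arrays, cannot settle it. Without single arrays the counts ranged from 0 to 15 for collagens and from 0 to 24 for pathway genes. The cause of these changes was not tested. Other scalings, kept outlier spots and other probe rules gave 3 to 6 collagens and 6 to 7 pathway genes. Col6a3, Col5a1, Col5a2 and Col7a1 kept their direction under every setting run.

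Reversed signs were in genes and pairs not called. With median scaling Col18a1 was at -0.000334, Col19a1 at -0.014 and P4ha1 at -0.021. With array weights Col18a1 was at -0.088 and Col19a1 at -0.054, and with slide row as a block Col19a1 was at -0.000545. Col14a1 was at 0.019 with normexp and Col1a1 at 0.031 with the mean of its probes. Without single arrays, the ranges were -0.063 to 0.088 for Col18a1, -0.031 to 0.053 for Col19a1, -0.026 to 0.051 for P4ha1, -0.19 to 0.13 for Col14a1, -0.15 to 0.0095 for Col1a1, -0.041 to 0.10 for Col4a1 minus Col4a2 and -0.000556 to 0.28 for Col5a1 minus Col5a3. Signal over background limits the 13 genes not tested.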

Other observations

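In 2 of the genes not tested, a probe was bright on 1 array and near background on the others. The probe of Col4a4 read 5.79 on Ta replicate 2 and between 1.61 and 1.87 on the other 5 arrays. A probe of Col23a1 read 6.53 on Ti replicate 2 and between 1.28 and 1.53 on the others. Each has 1 spot per array.

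Genes that were not called in the collagen breakdown list included Mmp3, a stromelysin, at 1.74 ± 0.39 (adjusted p = 0.0586), and Mmp13, an interstitial collagenase, at 1.40 ± 0.44 (adjusted p = 0.0999). Both had Ta replicate 1 between the Ti arrays and the other Ta arrays. Among fibril-associated genes not called, Dpt differed by -2.37 ± 0.63, Ogn by -1.66 ± 0.45 and Prelp by -1.21 ± 0.37. These 5 genes were named after their values were seen.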
